A study of Mus musculus with 18 samples.

Results

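Imprinted growth genes are genes of which only the copy inherited from the mother, or only the copy inherited from the father, is transcribed. In mouse skeletal muscle, 10 such genes were examined through adult life: Igf2, H19, Dlk1, Meg3, Peg3, Mest, Plagl1, Cdkn1c, Grb10 and Ndn. They were chosen by name as imprinted genes known to be high before birth and to fall afterwards. Earlier results of these data were known when they were chosen. All 10 were found among the 23420 genes of the RNA-seq table. Hindlimb muscle was taken from female C57BL/6J mice at 2 months (2 m), 20 months (20 m) and 28 months (28 m), with 3 mice per age and 1 poly-A RNA-seq library per mouse. For MBD-seq, in which a methyl-CpG-binding domain captures methylated DNA, the DNA of the 3 mice of each age was pooled, from muscle and from T cells that were sorted from the spleens with magnetic beads. The muscle pools were captured in 2 rounds, and the table holds 1 column per tissue and age, which for muscle does not name the round. The mice were untreated and carried no engineered allele, and age was the only variable.

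Imprinting rests on differentially methylated regions that carry methylation on only the maternal or only the paternal chromosome and that are set in the egg or the sperm. Many imprinted genes act on growth, with paternally expressed genes such as Igf2, Dlk1, Peg3 and Mest often favouring growth and maternally expressed genes such as H19, Cdkn1c and Grb10 often restraining it. Most of them are expressed strongly in the fetus and are turned down in the weeks after birth. The values described here are later in life, since the youngest mice were already young adults.

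The Igf2 and H19 genes lie next to each other on chromosome 7 and share a control region upstream of H19, where the insulator protein CTCF binds the unmethylated maternal copy. The 14-letter insulator motif that CTCF binds at this control region was searched on both strands within 5 kb of the start site of 21504 RefSeq genes in the GRCm38 (mm10) sequence, and 44 of them (0.205%) held it at least once. H19 held 3 matches, the highest number found, which it shared with only Mir675, the microRNA gene inside H19. Since the motif is the one known from this control region, that rank was set in advance and is not a finding. The matches are printed because the MBD-seq signal over them is described further on. All 3 lie on the minus strand of chromosome 7, at chr7:142580301-142580330, chr7:142580756-142580785 and chr7:142582026-142582055, which is 2169, 2624 and 3894 bases upstream of the H19 start. Each is printed 5′ to 3′ with the matched letters in capitals, and a match is a description of the letters and not a binding site.
H19 upstream match 1: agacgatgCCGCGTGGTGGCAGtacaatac
H19 upstream match 2: ggatgctaCCGCGCGGTGGCAGcatactcc
H19 upstream match 3: gggagttgCCGCGTGGTGGCAGcaaaatcg

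Igf2, H19, Meg3 and Mest also host a microRNA in their transcribed region. The RefSeq mature 5p sequences are given because these products belong to the same loci, with the seed (bases 2 to 8) in capitals.
mmu-miR-675-5p in H19: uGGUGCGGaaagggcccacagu
mmu-miR-335-5p in Mest: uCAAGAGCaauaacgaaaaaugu
mmu-miR-483-5p in Igf2: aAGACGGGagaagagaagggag
mmu-miR-770-5p in Meg3: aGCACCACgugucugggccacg
The 4 seeds differ from each other. The rows of these microRNA genes held 0 reads in all 9 libraries, and poly-A RNA-seq does not measure the mature products, so nothing can be said of their levels.

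The RNA-seq libraries held 20203833 to 71115244 reads on genes, and values are reads divided by 1 size factor per library (normalized counts). The muscle fibre markers summed to between 4974800 and 6639320 normalized counts, and none of the 8 was at 0 at any age, so the tissue was as labelled. The 3 libraries numbered 3 stood apart at every age. Their normalized counts summed to 38131600 to 39602600 against 47840600 to 52950500 in the other libraries, and their 100 leading genes took 51.3 to 53.9% of reads against 61.3 to 65.1%. In addition, 2-m replicate 1 held bone and cartilage markers at a sum of 1955 normalized counts and marrow and neutrophil markers at 5606, where the other 2-m libraries held 76 to 104 and 109 to 164. Calls that ended without the libraries numbered 3 are given with each gene.

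In 28-m muscle 9 of the 10 genes were lower than in 2-m muscle, and 7 were lower in 20-m than in 2-m muscle, at an adjusted p under 0.05 over the 13178 genes tested (limma). All 10 passed the filter of a mean of 10 normalized counts. None rose. Among all genes tested, 6.24% fell and 7.53% rose at 28 m, 7.13% fell and 9.42% rose at 20 m, and the median log2 fold change of all genes was -0.01 and -0.02 where that of the 10 genes was -0.88 and -0.72. Both comparisons used the same 2-m libraries, so they are not separate evidence. Between 20 m and 28 m none of the 10 genes passed at an adjusted p under 0.05. By a cut like that of the study (more than 2-fold with p below 0.05, here the unadjusted limma p where the study used DESeq2), the genes that fell included Meg3 and Plagl1 at 20 m, where 2.90% of all genes fell by this cut, and Meg3, Plagl1, Dlk1 and Peg3 at 28 m, where 2.48% did. Between 20 m and 28 m, Dlk1 fell by this cut (2.16-fold lower at 28 m, unadjusted p = 0.0422, limma), as did 0.379% of all genes. The counts depended on the scaling and on the libraries numbered 3. With libraries scaled to equal sums, 3 genes were called at 20 m (Igf2, Meg3 and Plagl1) and 2 at 28 m (Meg3 and Peg3), where 1.76% and 1.51% of all genes fell. Without the libraries numbered 3, 4 were called at 20 m (Igf2, Meg3, Plagl1 and Cdkn1c) and 5 at 28 m (Igf2, Meg3, Peg3, Grb10 and Ndn), where 3.16% and 2.37% of all genes fell. Bulk RNA cannot tell fewer cells of a type from less RNA per cell.

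**Figure D1:**
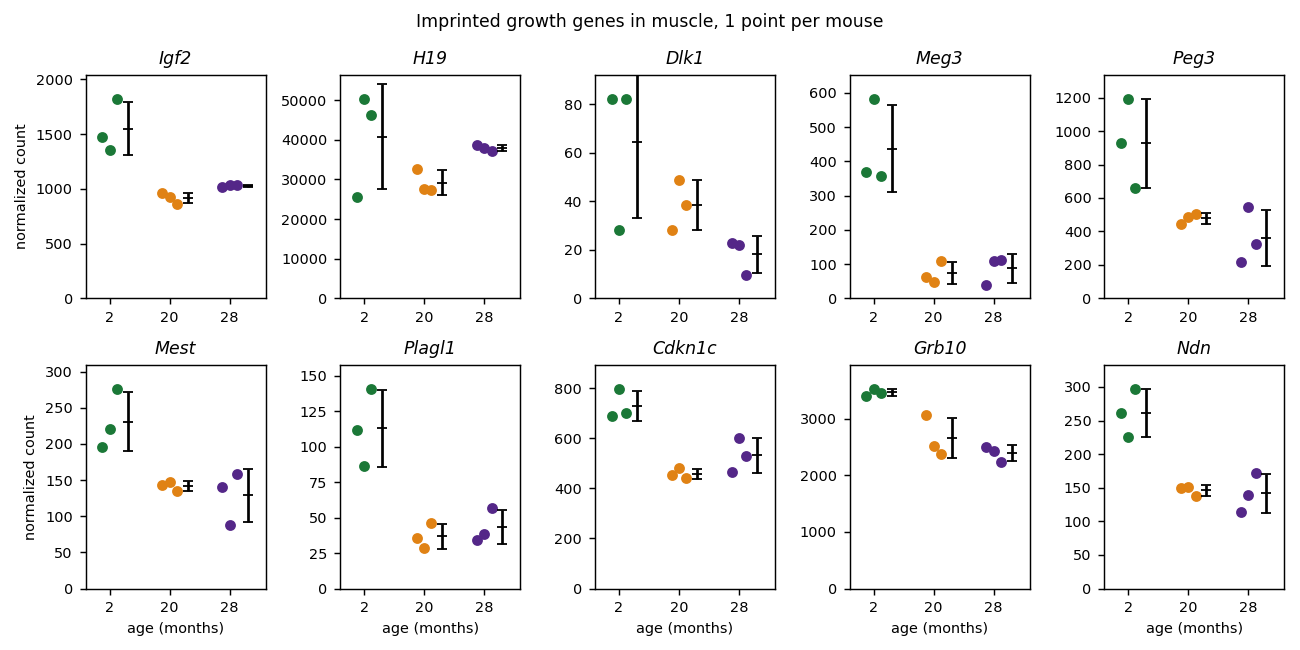
Normalized count (vertical axes, from 0) of each of the 10 genes in every mouse at 2, 20 and 28 months, with the mean and SD of the 3 mice as the black mark beside the points. In 8 of the 10 panels every 20-m and 28-m point lies below every 2-m point, and in H19 and Dlk1 the ages overlap.

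Per kilobase of the longest transcript, the 10 genes spanned a wide range of levels in 2-m muscle. H19 stood at 17840 normalized counts per kb, rank 71 of 21777 genes, and was far above the others. Grb10 followed at 684, Cdkn1c at 384 and Igf2 at 329. Peg3 (107), Mest (86.7) and Ndn (70.7) formed a middle group, and Meg3 (30.0), Plagl1 (21.5) and Dlk1 (13.8) were lowest. Dlk1 rested on 5 to 114 reads per library, so its values carry the largest counting error, whereas H19 rested on at least 11515 reads.

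Igf2 encodes insulin-like growth factor 2, a secreted growth factor of the fetus that is also made by muscle cells as they differentiate. Its gene lies at chr7:142650768-142666816 on the minus strand. It measured 1476, 1353 and 1826 normalized counts in the 2-m mice, 958, 928 and 863 in the 20-m mice, and 1019, 1033 and 1038 in the 28-m mice. All 6 older mice were below all 3 young mice, and the 28-m mice lay close to each other. The log2 fold change was -0.75 (SE 0.11, adjusted p = 0.000688, limma) at 20 m and -0.58 (adjusted p = 0.00399) at 28 m. The 28-m call was lost when libraries were scaled to equal sums (log2 fold change -0.54, adjusted p = 0.227).

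H19, a maternally expressed long noncoding RNA at chr7:142575530-142578146 on the minus strand, did not pass in either comparison with 2 m, and its change was not tested against that of Igf2. It measured 25666, 50399 and 46283 normalized counts in the 2-m mice, 32717, 27557 and 27280 in the 20-m mice, and 38643, 37947 and 37132 in the 28-m mice. The lowest of the 9 values was that of 2-m replicate 1, and the older mice lay between it and the other 2-m mice. The log2 fold change was -0.43 (95% CI -0.85 to -0.01, adjusted p = 0.149, limma) at 20 m and -0.05 (95% CI -0.46 to 0.37, adjusted p = 0.904) at 28 m. Without 2-m replicate 1, the library with bone and marrow markers, the log2 fold change of H19 at 20 m was -0.73 and passed (adjusted p = 0.00153, limma). It also passed at 20 m with quantile normalization (adjusted p = 0.0490) and with DESeq2 (adjusted p = 0.0397). The ratio of H19 to Igf2 normalized counts was 17.4, 37.2 and 25.3 in the 2-m mice, 34.1, 29.7 and 31.6 in the 20-m mice, and 37.9, 36.7 and 35.8 in the 28-m mice, so the ages overlapped.

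Dlk1 and Meg3 are the paternally and maternally expressed genes of an imprinted domain on chromosome 12. Dlk1 (chr12:109452485-109463336, plus strand) encodes a membrane protein related to the Notch ligands that is present in fetal muscle and in preadipocytes. It measured 82.5, 28.2 and 82.3 normalized counts in the 2-m mice, 28.0, 48.9 and 38.7 in the 20-m mice, and 22.8, 22.1 and 9.44 in the 28-m mice. The 28-m mice were below all others, whereas 2-m replicate 2 lay among the 20-m mice. The log2 fold change was -0.61 at 20 m (adjusted p = 0.429, limma) and -1.72 at 28 m (SE 0.49, adjusted p = 0.0361). The 28-m call did not hold without 2-m replicate 1 (adjusted p = 0.130), 2-m replicate 3 (0.120), 20-m replicate 3 (0.0502), 28-m replicate 1 (0.0573) or 28-m replicate 3 (0.124), nor without the libraries numbered 3 (log2 fold change -1.07, adjusted p = 0.334, limma) or with libraries scaled to equal sums (adjusted p = 0.0655).

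Meg3 (chr12:109540996-109571729, plus strand), a long noncoding RNA, showed the largest change of the 10 genes in both comparisons. It measured 370, 583 and 356 normalized counts in the 2-m mice, 63.5, 48.9 and 110 in the 20-m mice, and 39.8, 109 and 113 in the 28-m mice. Every older mouse was far below the lowest young mouse. The mean at 20 m was 17.0% of that at 2 m, and the mean at 28 m was 20.0%. The log2 fold change was -2.59 (SE 0.39, adjusted p = 0.000960, limma) at 20 m and -2.41 (adjusted p = 0.00162) at 28 m, and both calls held in every alternative run. Rian, a noncoding RNA gene downstream of Meg3 in the same domain, measured 1277, 1308 and 972 normalized counts in the 2-m mice, 224, 164 and 218 in the 20-m mice, and 120, 181 and 136 in the 28-m mice. Its log2 fold change was -2.55 at 20 m and -3.03 at 28 m (adjusted p = 8.70e-06 and 1.59e-06, limma). Mirg and Rtl1 of this domain were under the filter on low values and were not tested. Rtl1 and Meg3 overlap on opposite strands, and the library kit does not mark strand, so their reads cannot be told apart where they overlap.

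Peg3, Plagl1, Mest and Ndn are paternally expressed genes that lie on separate chromosomes or, for Peg3 and Ndn, far apart on chromosome 7. Peg3 (chr7:6703892-6730462, minus strand) encodes a zinc finger protein. It measured 927, 1195 and 661 normalized counts in the 2-m mice, 445, 484 and 504 in the 20-m mice, and 214, 546 and 327 in the 28-m mice. The 6 older values lay below the 3 young values, with a wide spread at 2 m and 28 m. Its log2 fold change was -0.92 (SE 0.28, adjusted p = 0.0402, limma) at 20 m and -1.42 (adjusted p = 0.00537) at 28 m. The 20-m call was lost in 6 of the 9 fits that each left out 1 library, with adjusted p from 0.0527 without 28-m replicate 3 to 0.125 without 20-m replicate 1, and also with DESeq2 (adjusted p = 0.0503) and without the libraries numbered 3 (log2 fold change -1.18, adjusted p = 0.0624, limma) and with libraries scaled to equal sums (adjusted p = 0.0524).

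Plagl1 (chr10:13090832-13131694, plus strand) encodes a zinc finger transcription factor that acts on several other imprinted genes. It measured 111, 86.3 and 141 normalized counts in the 2-m mice, 35.5, 28.7 and 46.3 in the 20-m mice, and 34.2, 38.7 and 56.6 in the 28-m mice. The ages 20 m and 28 m overlapped, and both lay below 2 m. Its change on the log2 scale was -1.59 (SE 0.31, adjusted p = 0.00498, limma) at 20 m and -1.37 (adjusted p = 0.0125) at 28 m. The 28-m call was lost without 2-m replicate 3 (adjusted p = 0.0557, limma) without 28-m replicate 1 (0.0535) and without the libraries numbered 3 (log2 fold change -1.41, adjusted p = 0.0714), and with libraries scaled to equal sums (0.0855).

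Mest (chr6:30733506-30748466, plus strand) encodes an enzyme-like protein of the endoplasmic reticulum. It measured 196, 220 and 276 normalized counts in the 2-m mice, 144, 147 and 135 in the 20-m mice, and 140, 88.4 and 159 in the 28-m mice. No older mouse reached the lowest young mouse. At 20 m the log2 fold change of -0.69 had an adjusted p of 0.0531 (limma) and did not pass, whereas edgeR gave 0.0403, DESeq2 0.0169 and limma with the replicate number as a block 0.0375. At 28 m the change of -0.86 passed (adjusted p = 0.0229), but not without 2-m replicate 3 (0.0835) or 28-m replicate 2 (0.0631), nor without the libraries numbered 3 (log2 fold change -0.89, adjusted p = 0.0906) or with libraries scaled to equal sums (adjusted p = 0.184). Mest overlaps Copg2 on the opposite strand.

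Ndn (chr7:62348277-62349928, plus strand) encodes necdin, a MAGE family protein expressed in neurons and muscle precursors. It measured 261, 226 and 297 normalized counts in the 2-m mice, 149, 152 and 137 in the 20-m mice, and 114, 139 and 172 in the 28-m mice. The older ages overlapped each other and lay below 2 m. Its mean fell to 56.0% of the 2-m mean at 20 m and to 54.2% at 28 m. Its change on the log2 scale was -0.83 (SE 0.19, adjusted p = 0.0103, limma) at 20 m and -0.89 (adjusted p = 0.00788) at 28 m, and no single library ended either call. Both calls were lost when libraries were scaled to equal sums (adjusted p = 0.155 and 0.133), and the 20-m call was lost without the libraries numbered 3 (log2 fold change -0.68, adjusted p = 0.0876, limma).

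Cdkn1c and Grb10, which restrain growth and are expressed from the maternal copy in muscle, also fell. Cdkn1c (chr7:143458339-143461059, minus strand) encodes an inhibitor of cyclin-dependent kinases that helps muscle precursors leave the cell cycle. It measured 689, 798 and 702 normalized counts in the 2-m mice, 452, 481 and 440 in the 20-m mice, and 465, 602 and 528 in the 28-m mice. The 20-m and 28-m mice overlapped, and both lay below the 2-m mice. On the log2 scale it changed by -0.67 (SE 0.12, adjusted p = 0.00271, limma) at 20 m and -0.46 (adjusted p = 0.0222) at 28 m. The 28-m call was lost without 2-m replicate 2 (adjusted p = 0.0694, limma), 28-m replicate 1 (0.0971) or 28-m replicate 3 (0.0619), and without the libraries numbered 3 (log2 fold change -0.49, adjusted p = 0.121). With libraries scaled to equal sums neither call held (adjusted p = 0.118 and 0.483).

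Grb10 (chr11:11930499-12037428, minus strand) encodes an adaptor that binds the insulin and IGF1 receptors and damps their signal. It measured 3401, 3528 and 3457 normalized counts in the 2-m mice, 3060, 2522 and 2383 in the 20-m mice, and 2497, 2433 and 2235 in the 28-m mice. The young mice lay close together, and every older mouse was below them. At 20 m this was the smallest of the changes that passed, with a log2 fold change of -0.39 (SE 0.09, adjusted p = 0.0145, limma) at 20 m and -0.54 (adjusted p = 0.00270) at 28 m. The 20-m call was lost without 20-m replicate 2 (adjusted p = 0.0627, limma) or 20-m replicate 3 (0.0569), and without the libraries numbered 3 (log2 fold change -0.32, adjusted p = 0.0956). Both calls were lost with libraries scaled to equal sums (adjusted p = 0.367 and 0.180). Grb10 is expressed from the paternal copy in neurons, and these libraries do not tell the copies apart.

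**Figure D2:**
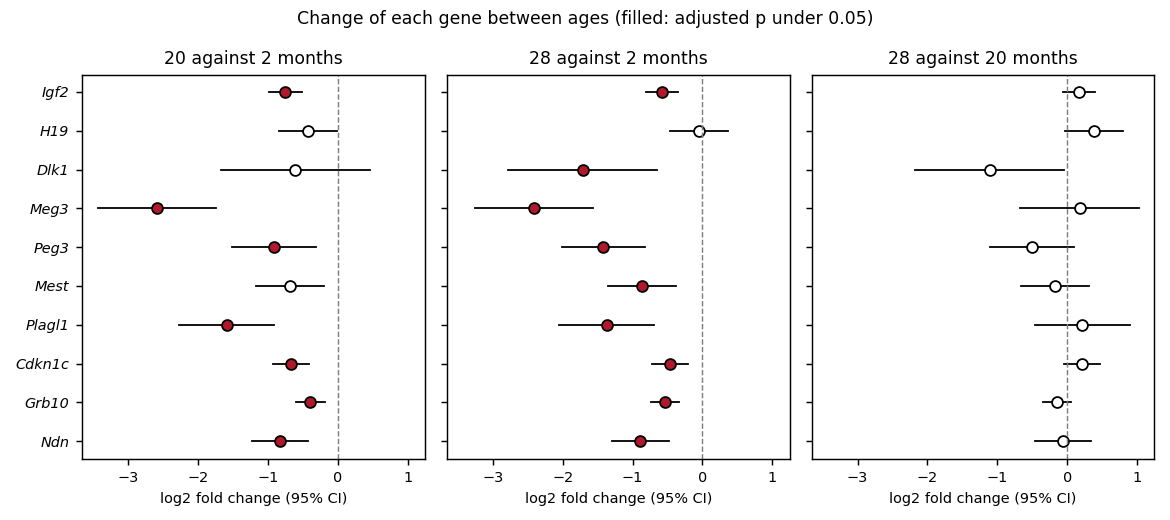
Log2 fold change of each of the 10 genes (horizontal axis, with its 95% confidence interval) in the 3 comparisons of ages. Filled points passed at an adjusted p under 0.05: 7 at 20 m and 9 at 28 m against 2 m, all to the left of 0, and none between 20 m and 28 m.

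Each gene was also compared by a permutation over the mice. With both older ages in 1 group (3 mice against 6), 8 of the 10 genes reached the smallest two-sided p the exact permutation test allows, 0.0238, because all 6 older mice were below all 3 young mice. Among all genes tested, 9.60% had all 6 older mice lower. Dlk1 had an exact p of 0.0714, with 4 of 6 older mice below the young mice, and H19 an exact p of 0.262, with none. Comparing 3 mice with 3, the exact test cannot go below 0.1. After libraries were scaled to equal sums, 5 genes (Meg3, Peg3, Plagl1, Grb10 and Ndn) still had all 6 older mice below the young mice, against 3.53% of all genes, while Igf2, Mest and Cdkn1c each had 5 of 6 and an exact permutation p of 0.0476.

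Between 20 m and 28 m no member passed in limma, edgeR or DESeq2, and 50 of all genes (0.379%) did in limma. Only Dlk1 had an unadjusted p under 0.05, with a log2 fold change of -1.11 (95% CI -2.17 to -0.05, adjusted p = 0.452, limma) and all 28-m mice below all 20-m mice. In H19 all 28-m mice were above all 20-m mice, at a log2 fold change of 0.38 (95% CI -0.04 to 0.80, adjusted p = 0.513, limma). Igf2 had the same order of ages, at 0.17 (95% CI -0.06 to 0.40). Among all genes, 8.63% had all 28-m mice higher and 8.84% all lower. For Meg3 the interval ran from -0.67 to 1.02 on the log2 scale, which is wide.

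Other imprinted genes did not share one direction. Of 23 further genes expressed from the paternal copy, 12 were tested, of which 2 fell and 3 rose at 20 m and 3 fell and 2 rose at 28 m. Zdbf2 had a log2 fold change of -1.63 at 20 m and -1.67 at 28 m (adjusted p = 0.00489 and 0.00483, limma). Usp29, next to Peg3, changed at 28 m by -3.06 on the log2 scale (adjusted p = 0.0281) from low counts of 24.5, 17.6 and 12.3 to 0, 2.76 and 1.89. Peg10, a gene derived from a retrotransposon, rose in every older mouse, from 118, 79.3 and 112 normalized counts to 232, 302 and 212 at 20 m and 315, 238 and 287 at 28 m. Its log2 fold change was 1.27 at 20 m and 1.44 at 28 m (adjusted p = 0.00140 and 0.000588, limma).

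Of 24 further genes expressed from the maternal copy, 17 were tested, of which 3 fell and 2 rose at 20 m and 4 fell and 1 rose at 28 m. Beside Rian, Atp10a, a gene for a lipid transporter, had a log2 fold change of -0.91 at 20 m and -0.74 at 28 m (adjusted p = 0.0169 and 0.0472, limma). Zim1, near Peg3, changed at 28 m by -0.76 on the log2 scale (adjusted p = 0.0386). Igf2r, the receptor that clears Igf2 and named here after its values were seen, rose by 0.31 and 0.38 on the log2 scale (adjusted p = 0.0338 and 0.0163, limma). It measured 5227, 5161 and 4962 normalized counts at 2 m, 6658, 6611 and 5855 at 20 m, and 7403, 5847 and 6791 at 28 m, with every older mouse above the young mice. No gene of either list passed between 20 m and 28 m. The median log2 fold change of the paternal list at 28 m was -0.04 and that of the maternal list -0.18.

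Of 18 genes of the IGF axis other than the members and Igf2r, 15 were tested, of which 7 fell and 1 rose at 20 m and 5 fell at 28 m. Igf1, the main postnatal growth factor of the family, measured 1542, 1094 and 1526 normalized counts at 2 m, 559, 532 and 402 at 20 m, and 651, 579 and 708 at 28 m. Its log2 fold change was -1.48 at 20 m and -1.09 at 28 m (adjusted p = 8.73e-05 and 0.000688, limma). Pappa2, a protease that frees IGF from its binding proteins, had a log2 fold change of -4.00 at 20 m and -1.98 at 28 m (adjusted p = 0.000562 and 0.0343, limma). Igf2bp2, an RNA-binding protein named for Igf2 mRNA, had a log2 fold change of -1.69 at 20 m (adjusted p = 0.0255). Among 12 tested genes of the Notch axis, the Notch target Heyl alone passed, with log2 fold changes of -0.71 and -0.64 (adjusted p = 0.0159 and 0.0279, limma).

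**Figure D3:**
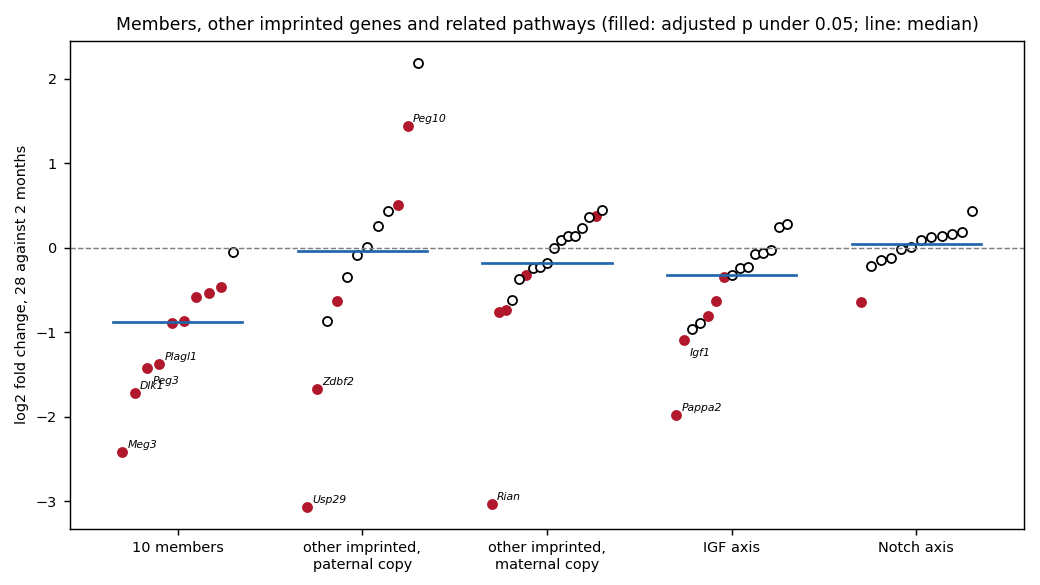
Log2 fold change of 28-m against 2-m muscle (vertical axis) for the 10 genes and for the other imprinted, IGF axis and Notch axis genes tested. Each point is 1 gene, filled where the adjusted p was under 0.05, and the line is the median: -0.88 for the 10 genes, between -0.33 and 0.05 for the other lists.

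Markers of other cells moved with age in the same libraries. Of 8 fibroblast and fibro-adipogenic progenitor (FAP) markers, 4 fell at 20 m and 3 at 28 m, and none was at 0. Their summed level was 29846 to 54151 normalized counts at 2 m, 8701 to 9897 at 20 m and 9974 to 12919 at 28 m. Most of the 2-m sum came from Col1a1 (34210, 11800 and 29950) and Col3a1 (10900, 10940 and 15600), so it does not measure the list as a whole. Col1a1 and Col3a1, fibrillar collagens, changed by -3.50 and -2.65 on the log2 scale at 20 m and by -3.34 and -2.17 at 28 m, and Dpt, a matrix protein, fell at both ages, with -0.69 at 28 m. Pdgfra, Ly6a, Dpp4 and Lum did not pass in either comparison. Of 8 adipocyte markers, 5 fell and 1 rose at 20 m and 2 fell at 28 m, with Cfd at -2.58 and -1.47, Retn at -2.48 at 20 m, and Cidec at -1.36 and -1.63. The sum over the list was 8347 to 10772, 9309 to 11743 and 7241 to 8821 at the 3 ages, most of it from Plin4, the marker that rose at 20 m. Without Plin4 the other 7 summed to 1706 to 4812 at 2 m, 550 to 834 at 20 m and 687 to 1770 at 28 m, so at 20 m every mouse was below the 2-m mice. Of 8 satellite cell markers, 1 fell and 1 rose at 20 m and 2 fell and 1 rose at 28 m (Myod1 -0.80 and -0.75, Chodl -1.14 at 28 m, Itga7 0.33 and 0.38). The part of these markers in the changes of the 10 genes was not tested.

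Of 8 muscle fibre markers, Mylpf fell at both ages and Actn3 at 28 m. Of the endothelial markers none passed. The macrophage markers C1qa, C1qb and Lyz2 fell at 20 m and did not pass at 28 m. Col2a1 alone of the bone and cartilage list, Mpo alone of the marrow and neutrophil list and, at 20 m, Top2a alone of the cell division list passed, and for these 3 lists 2-m replicate 1 held the highest sums. Without 2-m replicate 1, 7 of the 10 genes were called at 20 m, where 4.29% of all genes fell, and 8 at 28 m, where 3.76% did. The 7 then included H19 (adjusted p = 0.00153, limma) and no longer Peg3 (0.102), and at 28 m Dlk1 was no longer called (0.130). Of 5 tested genes of embryonic and neonatal muscle, Actc1, the cardiac actin of early muscle, had log2 fold changes of -4.03 and -2.56, whereas Myh3, the embryonic myosin, rose by 1.89 and 2.51 and Chrng, the fetal acetylcholine receptor subunit, by 2.82 and 3.11. Ncam1 also rose. The sum over the 8 genes of the list was 18843 to 67825 normalized counts at 2 m, 8845 to 11276 at 20 m and 12392 to 15765 at 28 m, lower in every older mouse, whereas without Actc1 it was 6854 to 8375, 7220 to 9332 and 7347 to 10450, and the ages overlapped.

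Over the 9 libraries, the mean standardized profile of the 10 genes was most like that of Nrep, Cd81, Ak3, Lingo3 and 6430571L13Rik, by the smallest root mean square difference (0.198 to 0.239 SD units). Nrep measured 4286, 6058 and 6888 normalized counts at 2 m, 837 to 960 at 20 m and 806 to 957 at 28 m. Among the 13178 genes ordered by this measure, the members ranked from 68 (Ndn) and 100 (Igf2) to 2510 (Dlk1) and 3773 (H19). The likeness is a description over 9 libraries that share their ages.

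MBD-seq gave a second readout of the same loci. Captured reads were averaged over the 500-bp bins that overlap 1 kb to either side of the outermost RefSeq start site, and each age was 1 pool of 3 mice, so no test between ages was possible and the intervals cover counting error only. In 2-m muscle the median of the 10 genes was 45.2 normalized counts per bin against 9.10 for all 21504 promoters. In all, 8 of the 10 stood above the 87th percentile of all promoters. Peg3 was highest at 63.9 (95% exact Poisson interval 57.4 to 70.9), followed by Plagl1 at 58.0, Cdkn1c at 55.9 and Mest at 52.2. H19 (46.0), Meg3 (44.4), Igf2 (41.7) and Ndn (31.1) came next. Dlk1 at 16.4 stood at the 69.5th percentile and Grb10 at 8.01 at the 45.6th. The outermost starts of 12 genes known for a germline imprinting control region, among them Peg3, Mest and Plagl1, had a median of 54.9. The outermost start need not lie in that region, and that of Snrpn is 444978 bases from the start of Snurf, where its control region lies.

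The captured signal at these promoters was lower in 28-m muscle. At 28 m 9 of the 10 genes were lower than at 2 m, against 40.2% of all promoters, and 9 were lower at 20 m, against 55.1%. The median of the 10 genes was 45.2 at 2 m, 34.9 at 20 m and 22.6 at 28 m, while that of all promoters was 9.10, 9.26 and 11.2. Peg3 went from 63.9 to 44.6 and 25.5 (interval 22.1 to 29.3), Plagl1 from 58.0 to 52.5 and 21.4, and Cdkn1c from 55.9 to 29.5 and 19.2. Meg3 went from 44.4 to 42.9 and 19.6, Mest from 52.2 to 51.4 and 33.9, and H19 from 46.0 to 39.1 and 26.0. Igf2 went from 41.7 to 30.6 and 25.9, Ndn from 31.1 to 27.6 and 23.8, and Dlk1 from 16.4 to 11.3 and 11.9. Grb10, the exception, stayed between 8.01 and 9.60. For Ndn and Dlk1 the intervals of 2 m and 28 m overlapped, and for the other 7 genes that were lower they did not. In the highest bin within 5 kb of each start, by the mean over the 6 MBD-seq columns, all 10 genes were lower at 28 m, against 89.2% of all promoters, and 7 were lower at 20 m, against 71.0%. The median log2 change there at 28 m was -1.16 for the 10 genes and -0.87 for all promoters. After scaling libraries to equal sums, these medians were -0.73 and -0.44. On that scale 9 of the 10 genes were lower in that bin at 28 m, against 75.7% of all promoters, with Grb10 at 0.36. At 20 m 7 were lower, against 61.8%.

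The high end of all promoters was also lower in the 28-m muscle column, whose 90th percentile was 23.5 normalized counts per bin against 34.4 at 2 m, while the median of all promoters was higher. In rank among all promoters, the median of the 10 genes went from the 94.8th percentile at 2 m to the 92.6th at 20 m and the 88.4th at 28 m. Mest held its rank, from 96.6 to 98.4, as did Igf2 (93.5 to 93.1), whereas Meg3 went from 94.6 to 82.8, Cdkn1c from 97.3 to 81.8 and Plagl1 from 97.6 to 86.4. The 12 genes known for a control region had medians of 54.9, 48.5 and 25.8 at the 3 ages, and of 54.9, 49.3 and 26.1 without Snrpn. The part of this column as a whole in these differences was not tested. With libraries scaled to equal sums, the median log2 change of the 10 genes within 1 kb of their starts from 2 m to 28 m was -0.31 in place of -0.73. On that scale 8 of the 10 genes were lower at 28 m, with Dlk1 at a log2 change of -0.02 and Ndn and Grb10 at 0.06 and 0.48, against 20.8% of all promoters, and 7 were lower at 20 m, against 44.7%.

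**Figure D4:**
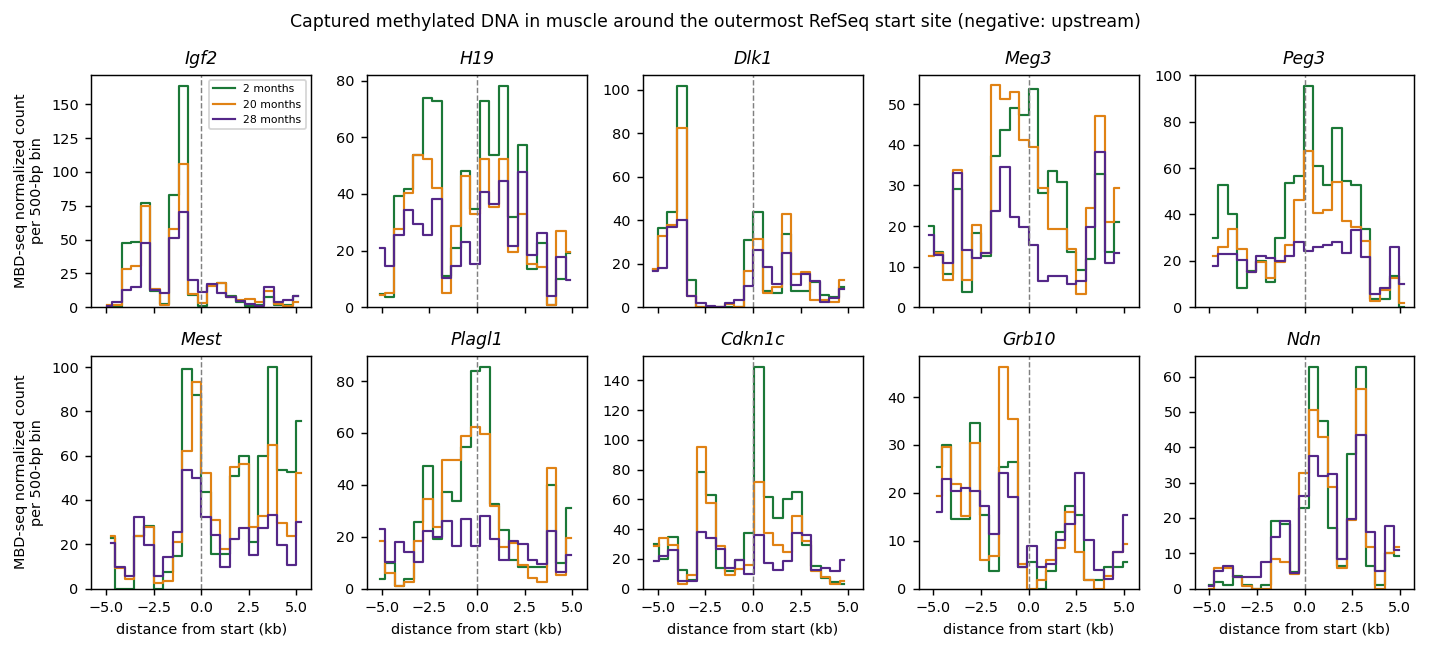
MBD-seq normalized count per 500-bp bin in muscle (vertical axes, from 0) against the distance from the outermost RefSeq start site, at 2, 20 and 28 months. The peaks over Peg3, Plagl1, Cdkn1c and Meg3 are lowest at 28 m, and the Grb10 start lies in a gap in the signal at every age.

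At the H19 upstream matches printed above, the bin that holds match 1 measured 72.8 normalized counts in 2-m muscle, 42.1 in 20-m and 38.2 in 28-m muscle. The bin of match 2 measured 73.7, 52.2 and 25.5, and that of match 3 measured 39.1, 27.8 and 25.5. All 3 bins were thus highest at 2 m in muscle. In T cells match 1 measured 81.2, 82.7 and 115, match 2 measured 69.0, 79.1 and 127, and match 3 measured 30.5, 45.0 and 38.3, with none highest at 2 m. The matched letters themselves hold 2, 3 and 2 CpG sites.

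Inner start sites were measured too. At the 3 inner Igf2 starts the 2-m muscle signal was 13.3, 1.64 and 11.8 normalized counts per bin, against 41.7 at the outermost start. At the inner Mest start it was 60.6, falling to 40.2 at 20 m and 20.8 at 28 m, and at the inner Grb10 start 26.4, 21.2 and 15.9. The inner Meg3 start, at 37.1, 39.7 and 25.4, was close to the outermost one at 44.4, 42.9 and 19.6. The Grb10 signal at the inner start was thus above that at the outermost start at every age.

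T cells, in which the same loci were captured from the spleens, went the other way from 2 m to 28 m. The median of the 10 genes was 56.6 normalized counts per bin at 2 m, 61.7 at 20 m and 85.9 at 28 m, against 10.6, 12.4 and 13.5 for all promoters. The high end of all promoters was also higher, with a 90th percentile of 39.4, 46.7 and 53.9. All 10 genes were higher at 28 m than at 2 m, where 65.0% of all promoters were not lower, and 7 were not lower at 20 m, against 64.4%. Peg3 measured 64.6, 74.5 and 115, Cdkn1c 47.1, 66.0 and 92.3, and Grb10 7.92, 22.1 and 43.6. In the highest bin within 5 kb, all 10 genes were not lower at 28 m, against 80.2% of all promoters, and 5 were not lower at 20 m, against 73.1%. After scaling to equal sums, 8 were not lower in that bin at 28 m, against 58.1%, and only 1 at 20 m, against 45.4%. The median log2 change of the 10 genes there was then 0.12 at 28 m and -0.21 at 20 m. In rank among all promoters the median of the 10 genes was at the 96.2nd, 94.9th and 97.0th percentile. With libraries scaled to equal sums, the median log2 change of the 10 genes within 1 kb of their starts from 2 m to 28 m in T cells was 0.33 in place of 0.65. On that scale 8 genes were not lower at 28 m, against 45.8% of all promoters, with H19 at -0.24 and Mest at -0.08 turned to lower and Igf2 at 0.00, and 5 were not lower at 20 m, against 43.2%. With 1 pool per age and tissue, a tissue difference cannot be told apart from a difference between captures.

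**Figure D5:**
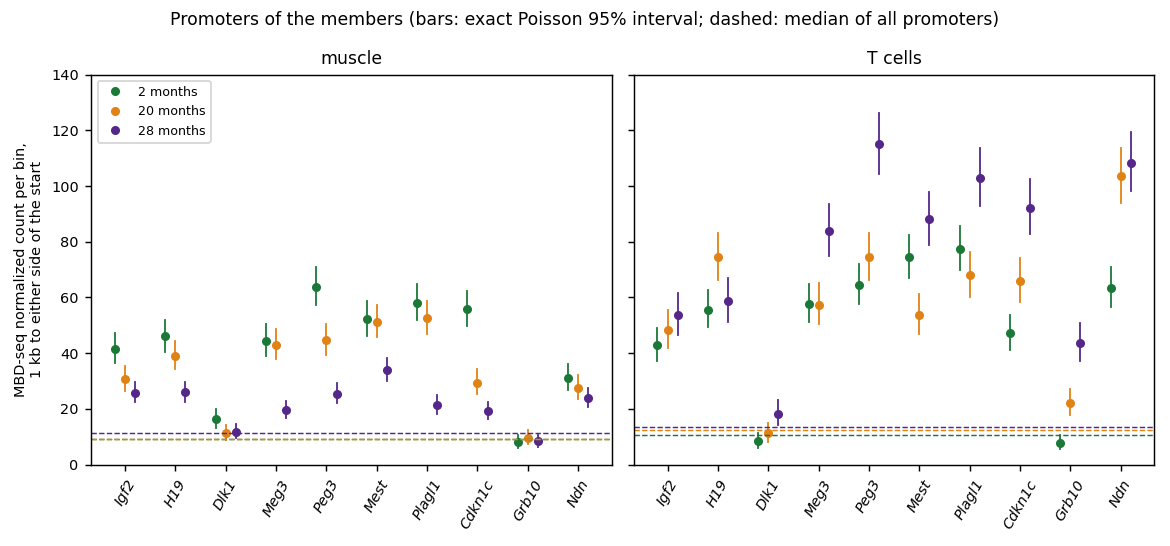
MBD-seq normalized count per bin within 1 kb of the start of each of the 10 genes in muscle and T cells (vertical axis, from 0), 1 pool of 3 mice per point with its exact Poisson 95% interval. Dashed lines mark the median of all promoters: in muscle 9.10, 9.26 and 11.2 and in T cells 10.6, 12.4 and 13.5 at 2, 20 and 28 months.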

How the data were processed

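The authors trimmed reads with Trim Galore and used Bowtie2 for MBD-seq and Hisat2 for RNA-seq, both on mm10 (the submitters' processing notes name TopHat). They counted MBD-seq reads per 500-bp bin with bedtools and RNA-seq reads per refSeq gene with htseq-count (intersection-strict). The deposited signal values of both tables are counts that the authors divided by 1 DESeq2 size factor per library. In the RNA-seq table all nonzero values (100%) were whole multiples of the value of 1 read, within 1e-06, so whole reads were recovered exactly. The MBD-seq values (100%) were whole multiples too, at a wider tolerance. MBD-seq depth was 135321218, 135254786 and 141889499 reads on bins in 2-m, 20-m and 28-m muscle and 196263907, 200456498 and 188758989 in T cells. Muscle DNA was captured in 2 rounds, which the column names do not tell apart.

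The members and all gene lists were chosen with earlier results of these data known. All 9 RNA-seq libraries were fitted with limma 3.58.1 (R 4.3.3) after adding 1 to each normalized count and taking log2, with 3 age groups and no covariate, over the 13178 genes with a mean of at least 10 and with Benjamini-Hochberg adjustment. The 5 rows of htseq-count totals were left out. On simulated data for 20 against 2 months over 13178 genes, 199 of 200 changed genes and 11 unchanged genes were called. How often changes as small as most of those of the 10 genes would be called in these libraries was not tested. Alternatives included DESeq2 1.42.0 and edgeR 4.0.16 on the recovered reads, and exact tests used scipy 1.17.1 and were two-sided. By rule the text names all members, the 3 genes of each list with the largest fold change among those that passed, and the 5 genes most like the members' mean profile. Gene positions and microRNA sequences are from RefSeq on GRCm38, and whether counting used strand is not given in the sources used here. A replicate is a mouse. Fold changes are on the log2 scale with 1 added, which understates low genes. Libraries of different ages with the same number did not vary together except those numbered 3, so numbers were not treated as pairs. One marker list is not reported here.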

Additional observations from a re-analysis of the deposited data

Results flagged for a closer look

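The captured signal at the promoters of the 10 genes moved in opposite directions in the 2 tissues: from 2 m to 28 m the median log2 change was -0.73 in muscle and 0.65 in T cells. With libraries scaled to equal sums these were -0.31 and 0.33. Each tissue had 1 pool per age, and the difference between tissues was not tested.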

How the results depend on the processing

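Over 21 settings, the 30 log2 fold changes of the 10 genes gave 627 values besides the reported ones, of which 566 kept their direction and side of the threshold, 42 lost a call, 11 gained one and 8 changed sign without a call. The sign changes were H19 at 28 against 2 m without 2-m replicate 2 (0.137), 2-m replicate 3 (0.0757) or the libraries numbered 3 (0.0905; -0.35 to 0.14 over libraries left out), and, at 28 against 20 m, Meg3 without 20-m replicate 2 (-0.0761), 28-m replicate 2 (-0.0530) or 28-m replicate 3 (-0.0797; to 0.66), Mest without 28-m replicate 2 (0.0746; from -0.34) and Ndn without 28-m replicate 1 (0.0832; from -0.21). Leaving out 1 library gave 5 to 8 members called at 20 m, 6 to 9 at 28 m and 0 to 0 between 20 m and 28 m, and 8 to 8 in the exact test. For all genes the ranges were 1081 to 2231, 963 to 1846 and 14 to 88. Scaling libraries to equal sums gave 3 members and 586 genes at 20 m, 2 and 554 at 28 m, and 24 genes between 20 m and 28 m. Leaving out the libraries numbered 3, chosen after seeing the data, gave 4 members and 1099 genes, 5 and 712, and 11 genes. The cause was not tested. Between 20 m and 28 m, a term for the libraries numbered 3 gave 103 genes, only the libraries of the ages compared 76, and DESeq2 228. With the replicate number as a block, no call of the 10 genes was lost, and Mest was also called at 20 m (adjusted p = 0.0375, limma). Between the older ages that fit called none of the 10 genes and 138 genes in all. Same-numbered libraries correlated at -0.04 to 0.16. The exact test was not run without a 2-m library, since 2 mice against 6 cannot go below 0.0714. For MBD-seq, the median log2 change from 2 to 28 m in muscle was -1.17 in the bin of the start site and -0.31 (-0.305) after rescaling, and in T cells it was 0.52 with 2 kb to either side and 0.33 after rescaling. With 3 mice per age and 1 MBD-seq pool, small changes could not be resolved, and Dlk1 rested on as few as 5 reads.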
